A study of Homo sapiens with 2 samples.

Results

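MIR17HG, MIR25 and MIR93 are the rows by which a pair of related microRNA clusters, miR-17-92 and miR-106b-25, appear among the non-coding RNAs of irradiated and unirradiated melanoma cells. The rows are those with these 3 gene symbols, and each symbol has 1 row, so the members are 3 of the 3576 RNAs in the table analysed here. The symbols themselves were picked with the ratios between the libraries already known, so those ratios are given as a description and not tested. MIR17HG, classed as a lncRNA, has the identifier NR_027350.1. MIR25 (NR_029498.1) and MIR93 (NR_029510.1) are microRNA precursor rows, of which the table holds 304.

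The cells were A375, an established human melanoma line labelled wild type, either untreated (0 Gy) or irradiated with 8 Gy, and each dose has a single library. The question stated for the series was how melanoma becomes resistant to radiation. The table sets 1 library against the other as a log2 fold change, under column names that match neither sample's labels. Whether these are the 0 Gy and 8 Gy libraries, and which stands on top of the ratio, was not stated in the labels or headers. The libraries are therefore called numerator and denominator, every "lower" below means lower in the numerator library, and no direction by dose is drawn. With 1 line, 1 library per dose and no replicate, no difference here has a replicate check.

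Both clusters descend from a shared ancestral cluster and are transcribed from proliferation-linked genes. MIR17HG encodes the primary transcript of miR-17-92, a cluster that MYC and E2F factors activate and that is known as an oncogene in lymphoma and other tumours. The miR-106b-25 cluster, with MIR106B, MIR93 and MIR25, lies in an intron of MCM7, a subunit of the replicative DNA helicase. Their mature microRNAs repress inhibitors of growth such as the cell-cycle inhibitor p21 and the pro-apoptotic protein BIM.

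The mature sequences show why precursors from separate chromosomes are described together, since a microRNA recognizes its targets mainly by its seed, bases 2 to 8. The main arm of each of the 9 microRNAs is printed 5′ to 3′ with the seed in capitals, grouped by seed, from RefSeq (GRCh38.p14).
miR-17-5p: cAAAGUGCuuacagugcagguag
miR-20a-5p: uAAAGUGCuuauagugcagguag
miR-106b-5p: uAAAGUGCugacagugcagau
miR-93-5p: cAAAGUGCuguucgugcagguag
miR-18a-5p: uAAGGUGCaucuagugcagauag
miR-19a-3p: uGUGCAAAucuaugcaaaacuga
miR-19b-3p: uGUGCAAAuccaugcaaaacuga
miR-92a-3p: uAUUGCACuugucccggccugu
miR-25-3p: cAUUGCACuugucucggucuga
The 9 sequences held 4 distinct seeds. AAAGUGC was shared by 4 of them, miR-17-5p and miR-20a-5p from MIR17HG and miR-106b-5p and miR-93-5p from MCM7. AUUGCAC was shared by miR-92a-3p and miR-25-3p, and GUGCAAA by miR-19a-3p and miR-19b-3p. MiR-93-5p matched miR-17-5p at 19 of 23 positions counted from the 5′ end, miR-20a-5p at 19 of 23 and miR-106b-5p at 16 of 21. MiR-25-3p matched miR-92a-3p at 18 of 22 positions.

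The MIR25 row itself stands for the hairpin and not for the mature microRNA. The hairpin, at chr7:100093560-100093643 on the minus strand of GRCh38.p14, is 84 bases long, and the mature arm miR-25-3p is in capitals.
MIR25 hairpin: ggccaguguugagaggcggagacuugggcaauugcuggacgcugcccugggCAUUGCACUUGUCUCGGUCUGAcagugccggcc
A read counted for this row may come from the hairpin or from any unspliced MCM7 RNA that spans it. The mature arm of MIR93 lies at chr7:100093815-100093837 on the same strand. In GENCODE 29, which is on GRCh38, both precursors and MIR106B lay in intron 12 of the MCM7 transcript MCM7-203, an intron of 771 bases, and none of the 108 exons of the 13 annotated MCM7 transcripts overlapped them. MIR106B, the third precursor of that intron, was not listed in the table.

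**Figure D1:**
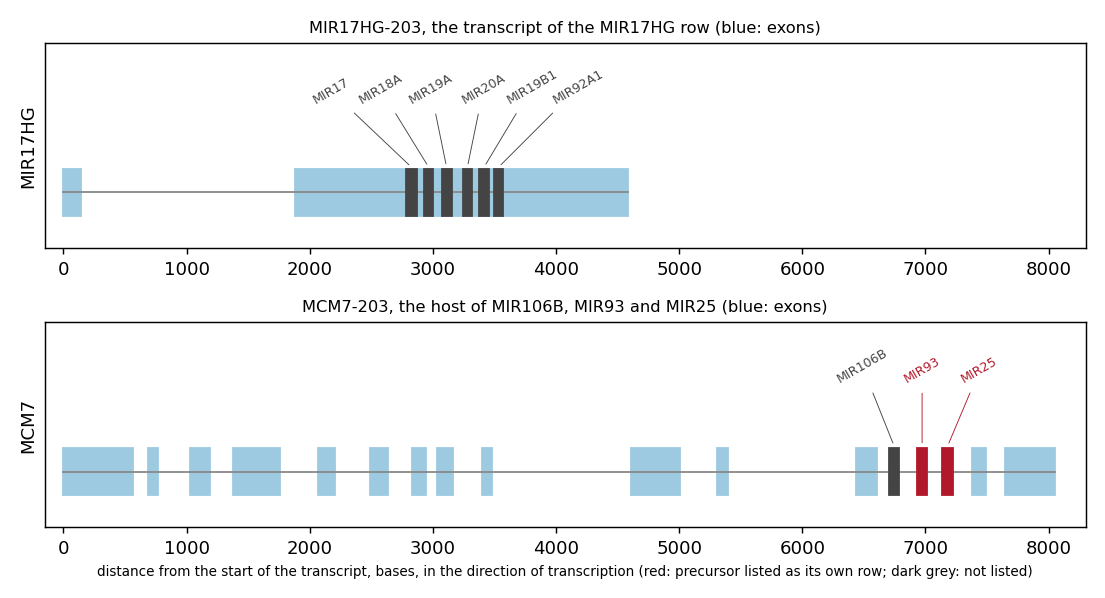
Maps of MIR17HG-203 and MCM7-203 drawn to scale from GENCODE 29, with distance from the transcript start in bases on the x axis, exons in blue, precursors with a row of their own in red and the other precursors in dark grey. The 6 precursors of miR-17-92 lie in exon 2 of MIR17HG-203, whereas the 3 precursors of miR-106b-25 lie in intron 12 of MCM7-203. MIR17HG-203 is classed as a retained-intron transcript, so this contrast belongs to the transcripts drawn.

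GENCODE 29 pairs the identifier of the MIR17HG row with its transcript MIR17HG-203, of 2 exons and 2845 bases. It classes MIR17HG-203 as a retained-intron transcript, so the exon placement given here is that of this transcript only. All 6 precursors, MIR17, MIR18A, MIR19A, MIR20A, MIR19B1 and MIR92A1, lay in exon 2 of MIR17HG-203, between 2785 and 3571 bases from the transcript start. None of the 6 was listed as a row of its own. The value is that of the row as the authors counted it. Reads of the uncut transcript and of pieces left after the precursors are cut out cannot be told apart in it, and mature microRNA was not measured. No label or header states the strand setting of the counting. 

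MIR25 was the lowest of the 3 members. Its reads were at least 22 in the numerator library and 79 in the denominator library. These are the smallest whole numbers that give the deposited ratio, and the true reads may be a multiple of them. After the depth ratio of 1.10 between the libraries, the denominator being the deeper, this is 3.27-fold lower, with an exact (Clopper-Pearson) 95% counting interval of 2.02 to 5.51. The authors' deposited table gives MIR25 a log2 fold change of -1.71, with p = 0.000763 and q = 0.171, so it did not pass q = 0.05 there. Such a p-value compares these libraries and not the doses. The interval covers counting error only and treats each read as an independent molecule, which PCR copies are not. With 1 library per dose, it holds no spread between cultures.

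MIR93, which lies 124 bases upstream of MIR25 in the same intron, rested on far fewer reads. Its smallest pair was 5 reads against 12, or 2.18-fold lower, and the 95% interval ran from 0.717-fold to 7.92-fold lower and so held the value of no change. The authors' deposited table gives it a log2 fold change of -1.13, with p = 0.349 and q = 1. The point values of MIR25 and MIR93 lay on the same side, but a difference of MIR93 between the libraries was not detectable at this depth. The fold of MIR25 over that of MIR93 was 0.668, with an exact conditional 95% interval of 0.193 to 2.70, which holds 1.

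MIR17HG, the host of the other cluster, was nearly level between the libraries. Its smallest pair was 237 reads against 238, which after the depth ratio is a 1.09-fold value with a 95% interval of 0.910 to 1.31. The authors' deposited table gives a log2 fold change of 0.13, p = 0.724 and q = 1. The fold of MIR25 was 0.280 of the fold of MIR17HG (interval 0.161 to 0.472), and that of MIR93 was 0.418 of it (0.114 to 1.30). The members were chosen with their ratios known and the spread between replicate cultures was not measured, so these intervals describe the reads of the libraries and test no difference between the members.

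**Figure D2:**
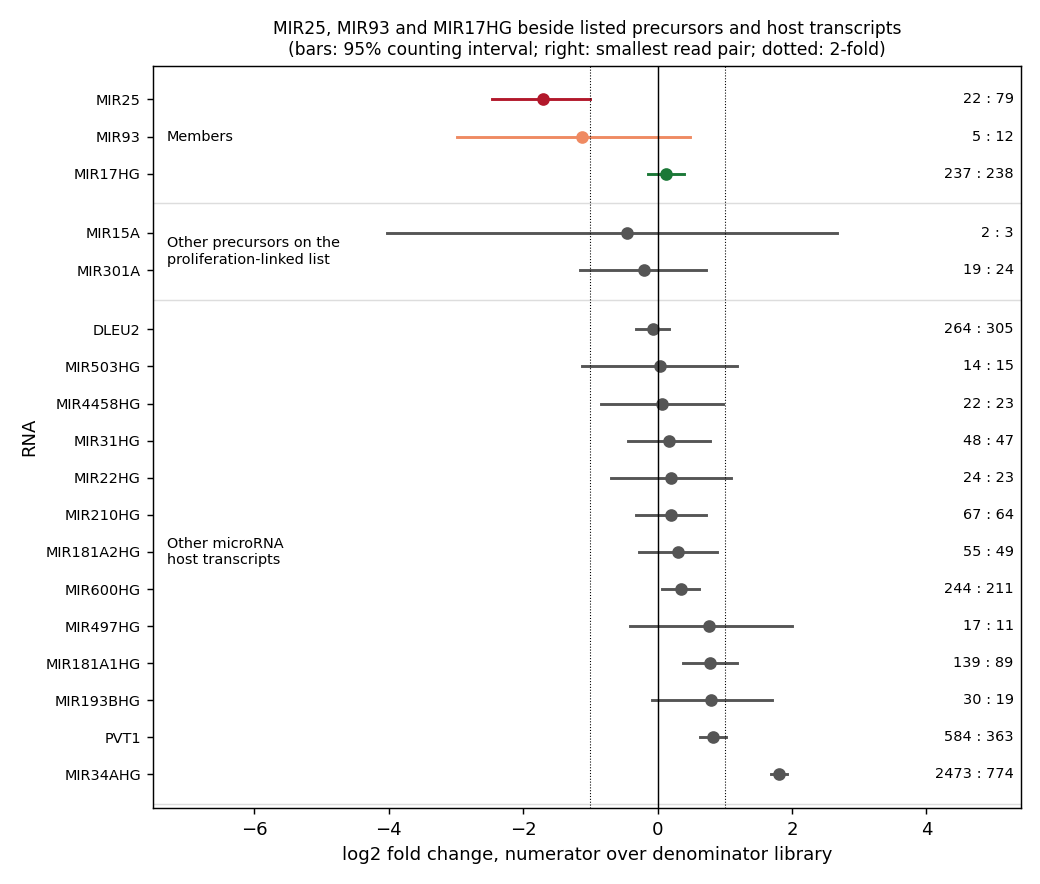
Log2 fold change of the numerator over the denominator library (x axis) for the 3 members, 2 further precursors of the proliferation-linked list and 13 further microRNA host transcripts, with 95% counting intervals as bars and the smallest read pair at the right. The whole MIR25 interval lies below 0, that of MIR93 crosses 0, and MIR17HG lies near 0, below most other hosts.

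A ratio of at least 2-fold lower was reached by 2 of the 3 members, MIR25 and MIR93, and a 2-fold higher one by none. Over all 3576 RNAs 227, or 6.35%, were at least 2-fold lower, and 583, or 16.3%, were at least 2-fold higher. Among the 304 precursors the shares were wider, with 39 at least 2-fold lower (12.8%) and 113 at least 2-fold higher (37.2%). In the authors' deposited table none of the 3 members reached q under 0.05, against 30 of 3576 RNAs (0.839%) and 7 of 304 precursors (2.3%). Because the symbols were picked with these ratios known, the members' share is not read against these backgrounds. The median log2 fold change was 0.16 over all RNAs, 0.40 over precursors and 0.11 over the 798 RNAs classed as lncRNA. MIR25 and MIR93 lay below the precursor median, while MIR17HG lay just above that of its class, with 416 of the 798 lncRNAs (52.1%) below it.

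MIR25 had a larger smallest read pair than the other low precursors. All read numbers in this comparison are those of the smallest pair, so the true reads of any precursor may be a multiple of them. In the order of log2 fold change it was number 21 from the bottom of the 304, and none of the 20 precursors below it had a smallest pair with more than 15 reads in the larger library. Of the 39 precursors at least 2-fold lower, 21 had a smallest pair with a 1 for the numerator library, which may stand for 0 or for a few reads. The 95% interval lay wholly below 1 for 10 of the 39. Apart from MIR25, the largest number in such a pair among the 39 was 30, against its 79. Over all precursors the median of the larger read number was 7, and MIR25 was number 6 by that measure. By the deposited p-value MIR25 was number 1 of the 112 precursors with a log2 fold change below 0 and number 9 of all 304.

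Precursors with at least 50 reads in the larger library of the smallest pair numbered 13, with a median log2 fold change of 0.24. MIR25 was the lowest of the 13 and the only 1 at least 2-fold lower (7.69% of them), while 4 were at least 2-fold higher (30.8%). Those 4 were MIR3189, MIR1204, MIR630 and MIR4712. MIR25, at 22 reads against 79, passed the minimum of 50 only through the denominator library, where it is high. MIR3189, MIR1204 and MIR630 passed only through the numerator library. MIR25 was also picked with its ratio known, so its place among the 13 is a description and not support. The next lowest after MIR25 was MIR5087, with 338 reads against 379 and a log2 fold change of -0.03. MIRLET7I, a precursor of the let-7 family, which represses growth genes such as RAS and HMGA2, had 85 reads against 79, a read number like that of MIR25, and stood at 1.18-fold (0.860 to 1.63).

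**Figure D3:**
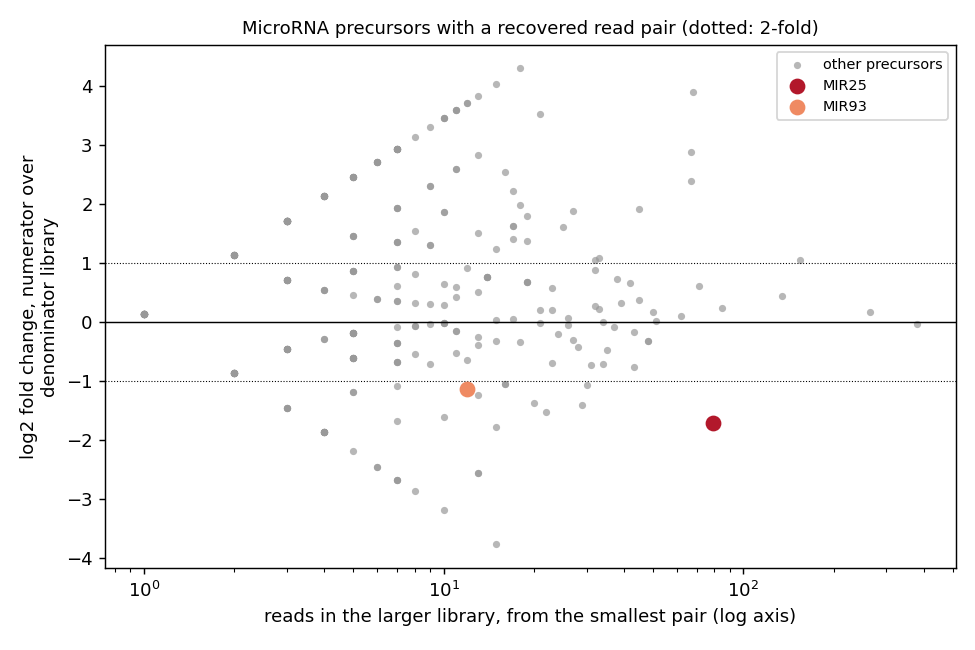
Log2 fold change (y axis) of each microRNA precursor with a recovered read pair against the reads of its larger library (x axis, log scale), with MIR25 and MIR93 coloured. MIR25, at 79 reads in its smallest pair, stands alone below -1 to the right of 30 reads, and MIR93, at 12 reads, lies within the broad spread of low read numbers. Each precursor is placed on the x axis by the library where its reads are more numerous, which for MIR25 is the denominator library.

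The precursors nearest to MIR25 in ratio, among the 90 with at least 12 reads in the larger library, were MIR3176, MIR320A and MIR544B below it and MIR7845, MIR4691 and MIR636 above it. MIR3176 had 4 reads against 15 and was 3.41-fold lower (1.09 to 14.1). MIR320A and MIR544B each had 2 against 13. MIR7845 had 7 against 22, or 2.86-fold lower (1.18 to 7.93), MIR4691 had 10 against 29 and MIR636 had 7 against 20. Each of these 6 had a smaller pair than MIR25 and a wider interval. Around MIR93 stood MIR4691, MIR636 and MIR5572 (5 against 13) below, and MIR4664, MIR4292 and MIR221 above. MIR4664 had the same smallest pair as MIR93, 5 against 12, and MIR4292 had 13 against 30 and was 2.10-fold lower (1.06 to 4.39). A likeness between only 2 libraries ranks ratios and does not compare patterns.

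MIR17HG lay in a dense part of the lncRNA order. Among 726 lncRNAs with at least 12 reads, the nearest above were NOP14-AS1, with 277 reads against 278, CCDC18-AS1, with 307 against 308, and LINC00909, with 514 against 513. The nearest below were SAMMSON, a melanoma lineage RNA, with 335 against 337, OIP5-AS1, an RNA known for binding miR-7, with 1840 against 1853, and a transcript of LINC00960 with 120 against 121. These 6 differed from MIR17HG by less than 0.01 on the log2 scale. All of them, like MIR17HG, had nearly equal reads in both libraries, which follows from choosing them as the nearest to it in ratio.

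Neighbouring precursors did not generally share their side. The table held 15 pairs of listed precursors next to each other on 1 strand within 10 kb. The log2 fold changes had the same sign in 6 pairs and opposite signs in 9, and the median distance within a pair was 1.10 on the log2 scale. MIR25 and MIR93 were 0.58 apart and were the only pair with both at least 2-fold lower. MIR99B and MIR125A were both at least 2-fold higher, at 5 reads against 1 and 5 against 2. MIR25 and MIR93 were picked with their ratios known, so their place among the pairs is a description. In the pair of MIR221 and MIR222, whose microRNAs share a primary transcript and repress the cell-cycle inhibitor p27, MIR221 had 7 reads against 16 and MIR222 had 3 against 1, with opposite signs. MIR27A and MIR23A stood at 14 against 15 and 7 against 12, and MIR425 and MIR191 at 2 against 3 and 10 against 7. Most of these pairs hold a precursor with few reads, and the members of a pair share a locus, so the counts describe these libraries only.

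**Figure D4:**
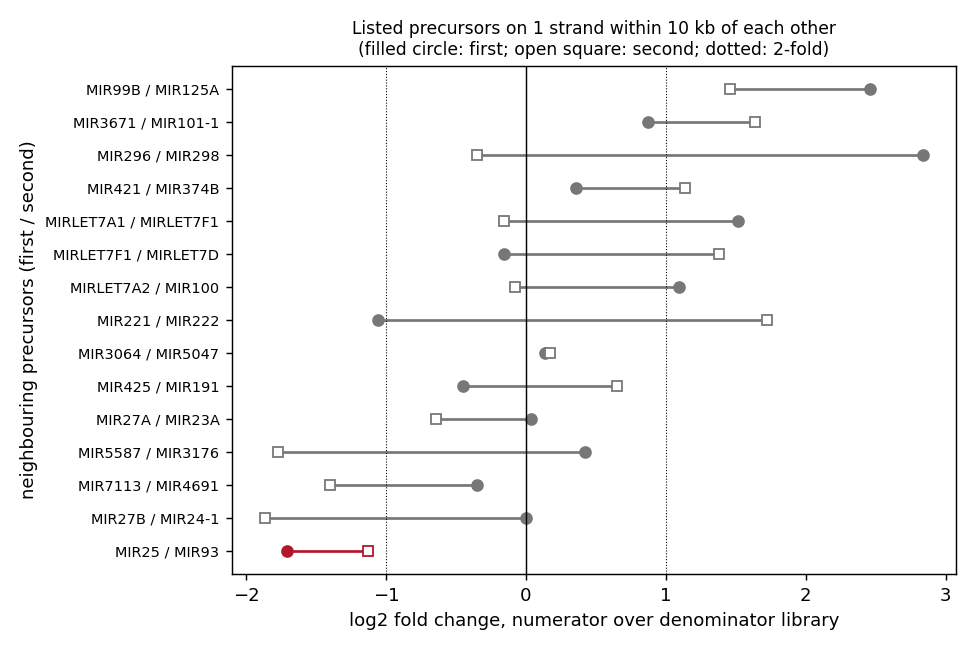
Log2 fold changes (x axis) of the 15 pairs of neighbouring listed precursors, the first named as a filled circle and the second as an open square, joined by a line. MIR25 and MIR93, in red, are the only pair with both values below -1, and 9 of the 15 lines cross 0. MIR99B and MIR125A lie on the other side, at 2.46 and 1.46. MIR25 and MIR93 were picked with their ratios known.

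Precursors inside other genes of cell division lay on both sides. MIR301A, inside the kinetochore gene SKA2, had 19 reads against 24 and stood at 0.870-fold (0.450 to 1.66). MIR548AR, inside CDC16, a subunit of the anaphase-promoting complex, had 45 reads against 13 and was 3.80-fold higher (2.02 to 7.68). MIR4258, inside CKS1B, which encodes a partner of cyclin-dependent kinases, had 18 against 1, where the 1 may stand for 0. MIR3122, inside DTL, had 3 against 2, and MIR1178, inside CIT, a kinase of cytokinesis, had 7 against 5, and both intervals held 1. On a list of 12 precursors in proliferation-linked hosts, which does not name MIR548AR, MIR4258, MIR3122 or MIR1178, 4 had a row, namely the 2 members, MIR301A and MIR15A. MIR15A, in the non-coding host DLEU2, had 2 against 3. All 4 had a log2 fold change below 0, as did 112 of 304 precursors (36.8%). Their median was -0.79, against 0.40 for all precursors. The 2 members were picked with their ratios known, so the 4 are not read against this background. MIR301A and MIR15A stood at -0.20 and -0.45, and the interval of each held 1. MIR548AR, MIR4258, MIR3122 and MIR1178 all lay above 0, but they were added after their values were seen. Other precursors not on the list lay below 0, such as MIR3153 inside CKS2 (-0.33) and MIR6767 inside CCNF (-0.60). No balance of sides is therefore drawn from the precursors named here. No row was listed for 60 replication and cell-cycle genes, MCM7 among them, so the level of the MCM7 messenger RNA was not analysed here.

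Of 16 genes of the miR-17-92, miR-106a-363 and miR-106b-25 clusters the 3 members were the ones listed. RefSeq held 21 human precursor genes with a mature arm that carries 1 of the 4 seeds printed above. Only MIR25 and MIR93 among them had a row, out of 274 listed precursors whose mature sequence was found in the RefSeq table. No other row therefore shows how a microRNA of the same seed stood. Precursors within a protein-coding gene on the same strand, as both are, numbered 217, with a median log2 fold change of 0.31. Of these 217, 30 (13.8%) were at least 2-fold lower and 76 at least 2-fold higher.

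Other host transcripts of microRNAs mostly lay higher than MIR17HG. Of 29 on the list 14 were listed, MIR17HG among them. Of the 14, 13 had a log2 fold change above 0, against 60.9% of all RNAs, and 1 lay below. The median of the 14 was 0.25, against 0.16 over all RNAs and 0.11 over RNAs classed as lncRNA. MIR17HG, MIR4458HG and MIR503HG lay above 0 but below the median of all RNAs. MIR34AHG, the host of the p53-activated miR-34a, was the highest of the 14, at 2473 reads against 774 and 3.51-fold higher (3.24 to 3.81). PVT1 and MIR193BHG followed, at 1.77-fold (1.55 to 2.02) and 1.73-fold (0.945 to 3.26). These intervals cover counting error only. None of the 14 reached q under 0.05 in the authors' deposited table, where MIR34AHG had q = 0.149. The lowest were DLEU2, the host of miR-15a and miR-16-1, at 264 against 305 and 0.951-fold (0.803 to 1.12), then MIR503HG at 14 against 15 and MIR4458HG at 22 against 23. MIR17HG was next, number 4 from the bottom and number 5 of the 14 by read number.

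The oncogenic list had 7 of 22 precursors in the table. Their median was -0.06, against 0.40 for all precursors, and 4 of the 7 lay below 0, against 36.8% of all precursors. At least 2-fold higher were 2 of the 7 and at least 2-fold lower 1, against 37.2% and 12.8% of all precursors. MIR221, MIR23A and MIR301A were the lowest. MIR222, MIR30B and MIR27A were the highest, at 3 reads against 1, 7 against 3 and 14 against 15. The 95% interval of each of the 7 held 1. Of 39 p53-linked or tumour-suppressor precursors 12 had a row. The median of these 12 was 1.02, and 9 of them lay above 0, against 63.2% of all precursors. Many of the 12 were let-7 precursors, namely MIRLET7A1, MIRLET7A2, MIRLET7D, MIRLET7F1, MIRLET7G and MIRLET7I. Of these, MIRLET7A1, MIRLET7D and MIRLET7F1 lie in the same host, so the values are not independent. The 95% intervals of MIR15A, MIR26B, MIR98, MIRLET7A1, MIRLET7F1, MIRLET7G and MIRLET7I held 1. Of the 12, 6 were at least 2-fold higher, against 37.2% of all precursors, and none was at least 2-fold lower, against 12.8%. The highest were MIR3189, inside the stress gene GDF15, at 68 reads against 5, MIR29A at 10 against 1, and MIR101-1 at 17 against 6, while MIR26B (4 against 7), MIR15A (2 against 3) and MIRLET7F1 (9 against 11) were the lowest. MIR3189 was already known to be high when the list was made. No precursor or host that marks blood, endothelium, mesenchyme, epithelium, muscle, neurons or liver was listed, of 29 sought.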

How the data were processed

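Per the labels' protocols, total RNA from untreated and irradiated A375 cells went into mRNA-Seq libraries, 1 for 0 Gy and 1 for 8 Gy. The submitters' processing notes name only mm10, a mouse build, although the identifiers are human. The sources used here do not name the aligner, the counting method or the test. Per the file headers, the authors deposited for each RNA the log2 fold change between libraries, with its p-value and q-value. The 2 columns of per-sample values match neither sample's labels and were not used. The members, gene lists and rules for named RNAs were chosen with earlier results of these data known. Named were the members, every listed RNA of the cluster and proliferation-linked lists, the 3 highest and 3 lowest of each other list, and the 3 nearest RNAs on each side of a member. MIR3189, MIR1204, MIR630, MIR4712, MIR5087, MIRLET7I, MIR548AR, MIR4258, MIR3122 and MIR1178, and the neighbouring pairs, were added after their values were seen.

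The most frequent log2 fold change, 0.14 (66 RNAs), was taken as equal reads, and each ratio was matched to its smallest pair of read numbers, neither above 3000, allowing a relative error of 1.5e-09. It succeeded for 3535 RNAs (98.9%). The search was tested on simulated data. Total depth is unknown. Intervals are 95% Clopper-Pearson intervals of the smallest pair, the widest the reads allow unless a 1 is in the pair. A 1 may stand for 0, and the interval would then have no bound on one side. Hosts and positions came from GENCODE 29, sequences from RefSeq. Versions were scipy 1.17.1, pandas 2.3.3, numpy 2.4.6, matplotlib 3.10.9 and Python 3.11.15.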

Additional observations from a re-analysis of the deposited data

How the results depend on the processing

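Of 31 alternative values 18 stayed within tolerance and 13 moved, and only MIR17HG, which was not called, changed sign. The tolerance was the 95% counting interval for a member, 1.5 times for a count and 0.1 on the log2 scale for a list median. Part of this tally was fixed in advance. List medians over every row could not differ, because each listed symbol had 1 row. List medians with the median of all RNAs as no change had to move, because the shift of 0.16 exceeds 0.1. MIR25 stayed between -2.11 and -1.57 on the log2 scale. MIR93 ran from -1.53 to -0.99, and it fell short of 2-fold when the value where the deposited p-values are largest, -0.13, was taken as no change. MIR17HG became -0.27 when the precursor median was taken as no change, and -0.03 with the median of all RNAs. For precursors, a 4-fold threshold gave 58 higher and 11 lower, 1.5-fold gave 66 lower, 10 reads in the larger library gave 36 higher and 16 lower, and 50 reads gave 4 and 1. With the median of all RNAs as no change, each list median changed by the subtraction of 0.16. The list medians became -1.29 (clusters), -0.95 (proliferation-linked hosts), -0.22 (oncogenic), 0.85 (p53-linked or tumour-suppressor) and 0.088 (hosts). The cluster list held only the 3 members, so its median is the value of MIR93 and no separate result. Leaving out the 6 precursors with no read pair was chosen after seeing the data and gave 107 higher and 39 lower. No paired analysis was possible because neither dose has a replicate. Depth limits MIR93 most, at 12 reads in its larger library.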
